A study of Homo sapiens with 15 samples.

Results

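The comparison asked which genes responded differently to the same guides when the recruited activation domain was p65 instead of VP64. It used 12 of the 15 libraries, with replicates A, B and C for each of 4 engineered lines of MelJuSo, an established human melanoma line. All 4 lines carry 5xALFA-dCas12a-VP64, that is, catalytically dead Cas12a fused to VP64 and to an array of ALFA tags. A nanobody that binds the tag is fused to VP64 in one pair of lines and to p65 in the other pair, and within each pair one line holds a cassette of 3 guides against CD4 and one holds no guides. The measure was the log2 fold change of guides against no guides in the p65 pair minus that in the VP64 pair, called the difference below, fitted for 14961 genes. The 3 libraries of the remaining line had tagged dCas12a and nanobody but no activation domain and no guides. They entered no contrast, only the shared estimate of the spread, the library scaling and the choice of genes tested. Because dCas12a itself carries VP64 in all 4 lines, the p65 pair held both domains. Each condition is 1 derived line, so line and condition cannot be told apart. The labels do not say whether replicates were separate cultures, so a p-value here reflects the spread among these samples and nothing more.

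VP64 is built from repeats of the activation segment of the herpes simplex virus protein VP16, and it recruits Mediator and histone acetyltransferases to a promoter. The protein p65, encoded by RELA, is a subunit of the transcription factor NF-kB, and its C-terminal region is widely used as an activation domain. Dead Cas12a binds DNA at the sites its guides match without cutting it, so that a domain tethered to it can act on a nearby gene.

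Library totals of the 4 lines ran from 15643705 to 22623404 expected counts. The mean correlation of a library with its own line, in log2 CPM, was 0.991 to 0.994. Its highest correlation with a library of another line was nearly as large, at 0.989 to 0.993. Replicates differed by more than sampling noise in every line. Melanocyte markers were present, with summed TPM of 296 to 645 per library. T cell receptor complex genes CD3D, CD3E and CD3G were listed at 0 in all 4 lines. Over all 14 T cell markers, 7 to 10 were at 0 per line and the summed TPM was 41.3 to 80.1 per library. Summed TPM was 117 to 183 for 13 myeloid, 64.6 to 90 for 12 epithelial and 88.9 to 119 for 13 fibroblast and endothelial markers.

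CD4, the co-receptor of helper T cells and the target of the guides (ENSG00000010610.9, hg38, chromosome 12, 6786858 to 6820808), rose with both nanobodies, and the difference did not pass the threshold. Scaled to library size, its level in the VP64 pair was 8.65, 8.39 and 9.43 CPM (counts per 1e6 counts) without guides and 1927, 1942 and 1816 CPM with guides (replicates A, B and C). In the p65 pair it was 10.0, 11.1 and 10.8 CPM without guides and 2131, 2126 and 1930 CPM with guides. The libraries with guides overlapped between the nanobodies, and those without guides did not. The guide effect was 7.75 on the log2 scale with VP64 (SE 0.146) and 7.60 with p65 (SE 0.143), a difference of -0.15 (SE 0.191, edgeR adjusted p = 0.854) with a 95% interval of -0.55 to 0.25. RELA, whose product supplies the p65 domain, also did not pass, with a difference of 0.05 (SE 0.055, adjusted p = 0.790). The interval of RELA ran from -0.06 to 0.17. In bulk RNA, fewer responding cells and less RNA per cell cannot be told apart, here and below.

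Of the 14961 genes, 115 had a higher guide effect with p65 (0.769% of genes tested) and 28 had a lower one (0.187%) at an adjusted p under 0.05. At least a 2-fold difference was seen in 11 of the higher genes (0.0735%) and 1 of the lower ones (0.00668%). The median difference was 0.44 among the 115 genes and -0.42 among the 28, beside 0.001 over all genes. Of the 143 genes, 139 are protein coding. Far more genes passed between the lines with and without guides. With VP64, 2889 rose (19.3%) and 3185 fell (21.3%), and with p65, 2805 rose (18.7%) and 3018 fell (20.2%). The count of 28 moved by more than 1.5 times when 1 library was left out: it was 9 without VP64 with guides B, 54 without p65 with guides A, 18 without p65 with guides C, 13 and 11 without VP64 without guides B and C, and 11 without p65 without guides B. Leaving out 1 library in the same way gave 80 to 133 higher genes.

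**Figure D1:**
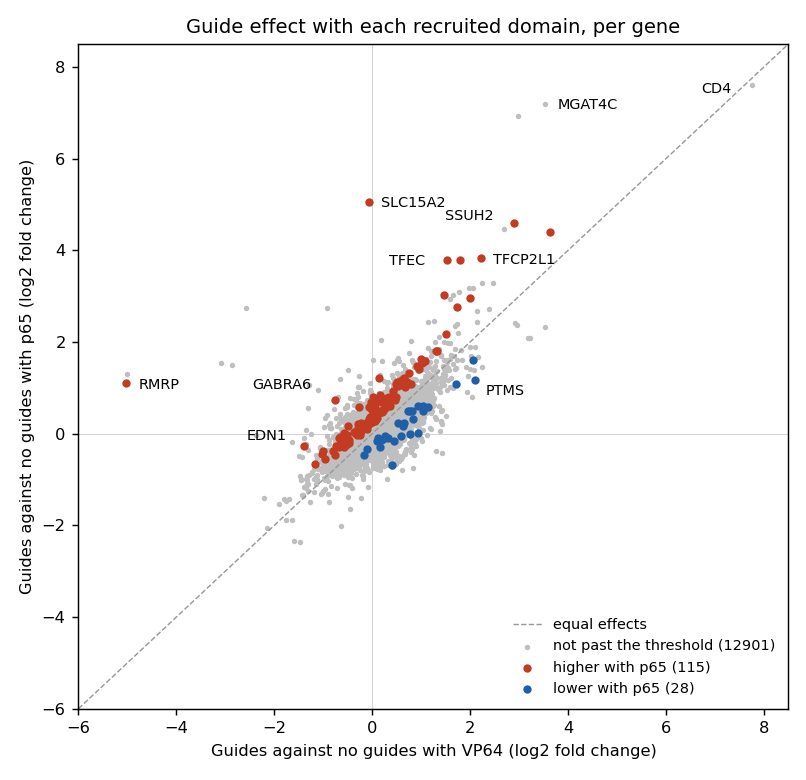
Each point is 1 gene averaging 1 CPM or more; the horizontal axis is its log2 fold change of guides against no guides with VP64 and the vertical axis the same with p65, and the dashed line marks equal effects. The 115 genes with a higher effect with p65 lie above the line and the 28 with a lower effect below it, most of them close to it, while CD4 lies on it at 7.75 and 7.60.

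The precision of the difference followed the level of the gene. Its median SE was 0.0858 among 9366 genes averaging 10 CPM or more, 0.296 among 3678 genes with 1 to 10 CPM and 0.686 among 1917 genes below 1 CPM. The calls were 108 higher and 27 lower in the first class, 7 higher and 1 lower in the second, and 0 in the third, so that only large differences were detectable in rare transcripts. Across genes, the guide effects with VP64 and p65, which share no library, had Pearson correlations of 0.883, 0.646 and 0.413 in the same order. This is a description across genes, which are not independent replicates.

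Higher with p65 covered several kinds of response. Of the 115 genes, 48 rose with both nanobodies and rose more with p65, 24 rose with p65 and did not pass with VP64, 18 fell with VP64 and did not pass with p65, 16 fell with both and fell less with p65, and 9 fell with VP64 and rose with p65. Of the 28 genes lower with p65, 14 rose with both and rose less with p65, 7 rose with VP64 alone, 3 fell with p65 alone, 2 fell with both and 2 rose with VP64 and fell with p65. To describe which line carried a difference, the line was found whose removal left the other 3 closest in mean log2 CPM. Among the 115 genes this was the p65 line with guides, above the others, in 64, of which 62 had no overlap with any other library of the 4 lines (0.769% of genes were called in this direction). Over all genes tested, that line stood apart upward in 10.7%, and in 2.93% with no overlap. It was the VP64 line with guides, below the others, in 31, the p65 line without guides, below, in 12 (10.4%), and the VP64 line without guides, above, in 8 (6.96%). Over all genes these shares were 18.3%, 12.5% and 8.74%. By mean level, the lines without guides thus stood apart in no larger share of the 115 genes. With no overlap their share was larger. The p65 line without guides stood below with no overlap in 11 (9.57%), against 3.06% of all genes. The VP64 line without guides stood above with no overlap in 8 (6.96%), against 1.90%. For the VP64 line with guides, below, it was 28 (24.3%), against 4.72%. Among the 28 genes it was the VP64 line with guides, above the others, in 20, of which 19 had no overlap (0.187% called in this direction). Over all genes that line stood apart upward in 16.7%, and in 4.97% with no overlap. The called genes were chosen by these same libraries, so the counts are descriptions.

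**Figure D2:**
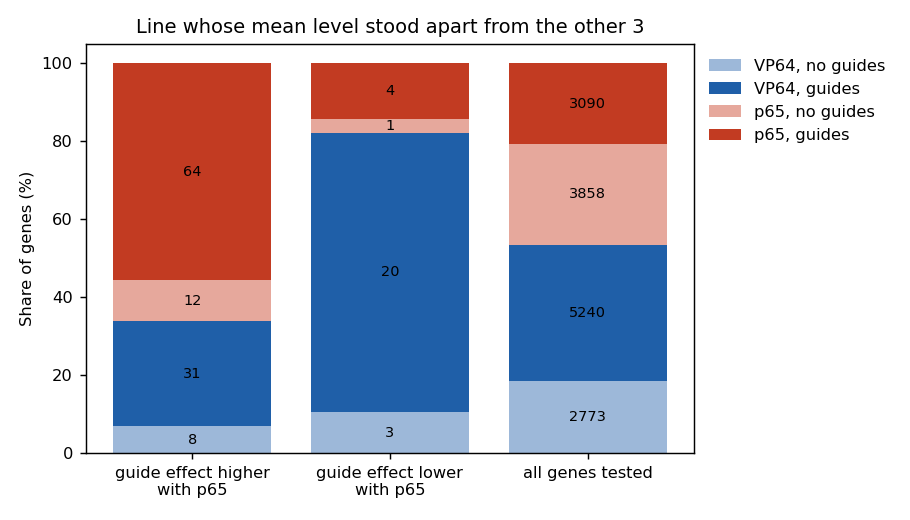
Bars give the share of genes (%), by the line whose mean level stood apart from the other 3, for the genes with a higher effect with p65, those with a lower effect and all genes tested; numbers are genes. The p65 line with guides holds 64 of the 115 higher genes and the VP64 line with guides 20 of the 28 lower ones.

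The levels show the same genes from the other side. When p65 was compared with VP64 directly, 315 genes passed without guides (2.11%) and 1185 with guides (7.92%). With guides, 98 of the 115 genes were higher in the p65 line and 2 were lower, and 24 of the 28 were lower in the p65 line. Without guides, 21 of the 115 were already lower in the p65 line and 0 were higher, and of the 28 lower genes 4 were lower and 2 higher. For those 21 of the 115 genes part of the difference lay in the lines without guides. The difference is the gap between p65 and VP64 with guides minus the gap without. The directions thus follow in large part from how the genes were chosen, and the counts are descriptions.

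Among the genes that rose with both nanobodies and more with p65, TFCP2L1 encodes a transcription factor of kidney epithelium and pluripotent cells (ENSG00000115112.7, hg38, chromosome 2, 121216587 to 121285207). Its level went from 2.92, 2.61 and 3.64 to 14.2, 14.1 and 14.2 CPM with VP64. It went from 3.41, 3.90 and 3.61 to 50.8, 47.9 and 56.1 CPM with p65. The p65 libraries with guides lay above all others, and the VP64 libraries with guides lay between them and those without guides. The guide effect was 2.21 (SE 0.123) with VP64 and 3.83 (SE 0.106) with p65. The difference for TFCP2L1 was 1.61 (SE 0.176, edgeR adjusted p = 1.45e-05).

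SLC15A2, a proton-coupled peptide transporter (chromosome 3, 121894089 to 121944102), responded in the p65 pair and showed no rise in the VP64 pair. It had 12 counts summed over the 3 VP64 libraries without guides and 10 with guides, against 8 and 251 in the p65 pair. The CPM was 5.23, 3.67 and 4.64 in the p65 libraries with guides and between 0.0509 and 0.316 in the other 9 libraries. The difference was 5.12 (SE 0.758, adjusted p = 0.000632), with a 95% interval of 3.55 to 6.70 that shows how loosely such low counts set its size. Only the p65 libraries with guides carried SLC15A2 past the low-count filter, so its adjusted p is given as a description. SSUH2 and TFEC, a member of the MiT family of transcription factors that includes MITF, rose with both nanobodies. The difference was 1.69 for SSUH2 (SE 0.316, adjusted p = 0.00731) and 2.28 for TFEC (SE 0.440, adjusted p = 0.0089). In the p65 line with guides SSUH2 reached 20.02 to 25.3 CPM and TFEC 6.44 to 7.40 CPM, above the 8.63 to 9.10 and 1.29 to 1.61 CPM of the VP64 line with guides. The call of SSUH2 was lost without VP64 without guides A and that of TFEC without VP64 without guides B or C, with adjusted p of up to 0.0692 and 0.0654 and differences of 1.33 to 1.92 and 2.07 to 2.59 over the refits that left out 1 library.

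SCG2, the precursor of the neuropeptide secretoneurin, had 4.15, 4.66 and 4.93 CPM without guides and 15.1, 14.6 and 15.8 CPM with guides in the VP64 pair, and 3.51, 3.54 and 5.85 CPM and then 29.7, 29.9 and 29.3 CPM in the p65 pair. Its difference was 1.04 (SE 0.193, adjusted p = 0.00699). The noncoding RNA LINC01198 had a difference of 1.54 (SE 0.288, adjusted p = 0.00705) and TPT1-AS1 one of 0.95 (SE 0.208, adjusted p = 0.0249). TPT1-AS1 is uncertain, since the gene is antisense to another and whether the counts used strand is not stated. Its call was also lost without VP64 with guides B, VP64 without guides A or B, or p65 without guides A or B, with differences of 0.74 to 1.12 and adjusted p of up to 0.127.

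The genes with the smallest p had smaller differences at higher levels. ANXA1, which encodes annexin A1, a calcium-dependent membrane-binding protein, had 516, 516 and 499 CPM without guides and 688, 725 and 726 CPM with guides in the VP64 pair. With p65, ANXA1 had 483, 487 and 484 CPM without guides and 999, 1022 and 1074 CPM with guides. The p65 libraries with guides stood above all others, and the difference was 0.61 (SE 0.052, adjusted p = 9.11e-07). ENDOD1 (0.56, SE 0.054), the beta-tubulin gene TUBB2A (0.58, SE 0.060) and PSG4, a pregnancy-specific glycoprotein gene (0.65, SE 0.070), followed, with adjusted p between 4.47e-06 and 1.34e-05. Without guides TUBB2A was lower in the p65 line (-0.19, adjusted p = 0.0202). PSG4 did not pass with VP64 (0.06) and rose with p65 (0.71). TUBB2A and PSG4 are uncertain, since near-identical copies in their families can share reads.

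**Figure D3:**
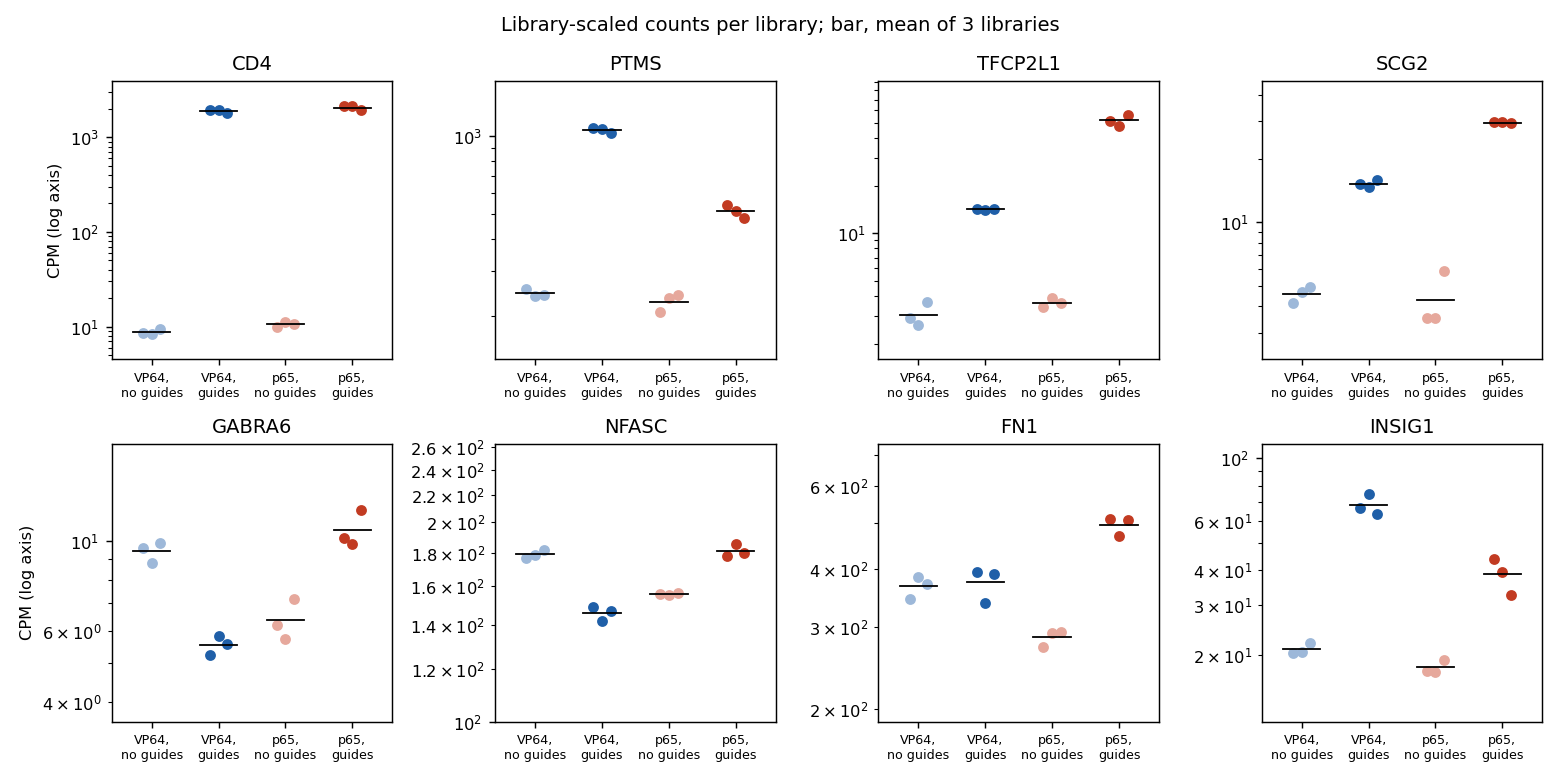
Each panel gives 1 gene; points are the CPM of single libraries on a log axis, bars the mean of 3 libraries, and columns the 4 lines. CD4 reaches 1816 to 2131 CPM with guides with either nanobody, PTMS is highest in the VP64 line with guides, and TFCP2L1 and SCG2 are highest in the p65 line with guides.

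In 11 genes the guide effect passed in opposite directions with the 2 nanobodies and the difference passed as well. NFASC, which encodes the cell adhesion protein neurofascin, went from 177, 179 and 181 to 149, 142 and 147 CPM with VP64 and from 156, 155 and 157 to 178, 185 and 179 CPM with p65. It thus fell by 0.30 with VP64 and rose by 0.21 with p65, a difference of 0.51 (SE 0.052, adjusted p = 7.29e-06). The libraries of each pair did not overlap between guides and no guides.

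GABRA6, a subunit of the GABA-A receptor, fell with VP64 (-0.76, SE 0.155) from 9.57, 8.80 and 9.86 to 5.22, 5.83 and 5.56 CPM. It rose with p65 (0.74, SE 0.148) from 6.21, 5.72 and 7.17 to 10.2, 9.83 and 11.9 CPM. The libraries with guides did not overlap, and the difference was 1.50 (SE 0.214, adjusted p = 0.0004). Without guides GABRA6 stood at -0.56 in the p65 line against the VP64 line, just short of the threshold (SE 0.149, edgeR adjusted p = 0.0515). HBEGF, a ligand of the EGF receptor, had a difference of 0.36 (SE 0.048, adjusted p = 0.000236) and EPB41L3, a membrane skeleton protein, one of 0.43 (SE 0.075, adjusted p = 0.00357). Without guides EPB41L3 was already lower in the p65 line (-0.34, adjusted p = 0.00044), and with guides it stood at 0.09 between the lines (adjusted p = 0.37). HBEGF and NFASC also started lower in the p65 line, at -0.14 (adjusted p = 0.0226) and -0.20 (adjusted p = 0.00341), and were higher in it with guides, at 0.21 and 0.31.

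A further set fell with VP64 and fell less, or did not pass, with p65. EDN1, the precursor of the vasoconstrictor endothelin-1, went from 26.2, 22.1 and 27.0 to 10.8, 8.16 and 9.92 CPM with VP64. With p65, EDN1 went from 21.3, 20.3 and 21.9 to 14.03, 14.2 and 24.3 CPM, and replicate C with guides lay above all libraries without guides of that pair. The VP64 libraries with guides lay below all others. The difference was 1.13 (SE 0.216, adjusted p = 0.00783), and it was 0.81 without p65 with guides C and up to 1.27 without another library. STC2, a secreted glycoprotein induced in ATF4-dependent stress, fell by 0.81 with VP64 and by 0.37 with p65, a difference of 0.44 (SE 0.074, adjusted p = 0.00268).

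The gene lists were read by counts and medians, and no list was tested as a whole. Of 30 lists, 16 held at least 1 gene past the threshold, beside 0.769% and 0.187% of all genes. Of the genes above, STC2 was the 1 of 24 in the ATF4 stress response that passed, with a median of -0.09. Targets of YAP and TEAD, which act at the end of the Hippo pathway, had 3 of 20 tested members higher with p65 and 0 lower, with 16 differences above 0 and a median of 0.13. CCN2, a matricellular protein, fell by 0.96 with VP64 and by 0.55 with p65. CCN1, its close relative and the 1 of 20 immediate-early genes that passed (median -0.07), fell by 0.62 with VP64 and by 0.23 with p65. CRIM1, a membrane protein that binds BMPs, was at 0.03 with VP64 and rose by 0.33 with p65. The differences were 0.40 (CCN2, adjusted p = 0.0323), 0.39 (CCN1, adjusted p = 0.00731) and 0.30 (CRIM1, adjusted p = 0.00221). CRIM1 was lower in the p65 line than in the VP64 line without guides (-0.24, adjusted p = 0.000294) and at 0.06 between them with guides. CCN1 was at -0.22 without guides (adjusted p = 0.0271) and at 0.17 with guides. The call of CCN2 was lost in 7 of the 12 refits that left out 1 library (VP64 with guides B or C, p65 with guides C, VP64 without guides A or B, p65 without guides A or B), with differences of 0.31 to 0.47. It was also lost with only the 12 libraries compared and with the replicate letter as a block.

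Genes of the extracellular matrix had 3 of 22 members higher with p65 and 0 lower, with 11 differences above 0 and a median of 0.01. FN1, which encodes fibronectin, had 345, 384 and 371 CPM without guides and 393, 338 and 390 CPM with guides in the VP64 pair. With p65, FN1 had 272, 292 and 293 CPM without guides and 512, 469 and 507 CPM with guides. The VP64 libraries overlapped and the p65 libraries did not, and the difference was 0.77 (SE 0.107, adjusted p = 0.000313). Without guides FN1 was lower in the p65 line by -0.36 on the log2 scale (adjusted p = 0.0103). COL5A1, a fibrillar collagen chain, had a difference of 0.44 (SE 0.084, adjusted p = 0.00731) and THBS1, the matricellular protein thrombospondin-1, one of 0.40 (SE 0.052, adjusted p = 0.000178). COL5A1 rose with both nanobodies (0.29 with VP64 and 0.73 with p65). THBS1 fell with VP64 (-0.37) and did not pass with p65 (0.03). COL5A1 and THBS1 were lower in the p65 line already without guides, by -0.57 and -0.63 on the log2 scale, and with guides COL5A1 was at -0.13 and THBS1 at -0.23.

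NF-kB target genes are of interest because p65 is an NF-kB subunit. Whether the recruited domain acts on them was not tested. Of 27 tested members, 2 were higher with p65, 1 was lower, 20 differences lay above 0 and the median was 0.15. SDC4, which encodes the cell surface proteoglycan syndecan-4, had 296, 295 and 283 CPM without guides and 359, 354 and 345 CPM with guides in the VP64 pair. With p65, SDC4 had 270, 276 and 266 CPM without guides and 416, 399 and 395 CPM with guides, above all other libraries. The difference for SDC4 was 0.30 (SE 0.050, adjusted p = 0.00268). CFLAR, the inhibitor of caspase-8 activation known as cFLIP, fell by 0.17 with VP64 and rose by 0.22 with p65. Its difference was 0.39 (SE 0.089, adjusted p = 0.032). IER3, an early response gene, rose with both and rose less with p65, a difference of -0.31 (SE 0.074, adjusted p = 0.0437). Without guides IER3 was already lower in the p65 line (-0.33, edgeR adjusted p = 0.000668). None of 17 NF-kB subunits and inhibitors passed (0 by edgeR), with a median of 0.05. The calls of CFLAR and IER3 did not withstand the refits: CFLAR lost its call in 9 of the 12 that left out 1 library (all but those without VP64 with guides C, VP64 without guides B and p65 without guides A; differences 0.34 to 0.43) and under the replicate block. IER3 lost its call in 7 (VP64 with guides A or B, p65 with guides C, VP64 or p65 without guides B or C; differences -0.36 to -0.26) and in 3 other settings.

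Promoters are shown for 3 of these genes because SDC4 and CFLAR carry the same match to the kappaB motif bound by NF-kB, and CCN2, from the YAP and TEAD list, carries one on the opposite strand. These 3 were thus picked for the match. SLC15A2, TFEC and SSUH2, which had larger differences, held none. Each run is the 250 bases before the RefSeq transcription start (GRCh38.p14), written 5′ to 3′ on the strand of the gene, with the match in capitals. CFLAR lies at chr2:201118466-201118715 on the plus strand, SDC4 at chr20:45348425-45348674 and CCN2 at chr6:131951373-131951622, both on the minus strand.
CFLAR: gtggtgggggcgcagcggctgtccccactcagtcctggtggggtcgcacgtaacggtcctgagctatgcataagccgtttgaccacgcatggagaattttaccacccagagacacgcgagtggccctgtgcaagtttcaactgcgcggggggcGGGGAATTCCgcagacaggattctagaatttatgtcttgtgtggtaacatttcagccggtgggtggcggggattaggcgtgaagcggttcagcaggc
SDC4: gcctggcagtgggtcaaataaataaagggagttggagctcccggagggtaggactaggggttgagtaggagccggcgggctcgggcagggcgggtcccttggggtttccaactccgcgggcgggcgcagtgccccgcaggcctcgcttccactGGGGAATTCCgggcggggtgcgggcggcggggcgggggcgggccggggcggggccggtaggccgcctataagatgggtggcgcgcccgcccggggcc
CCN2: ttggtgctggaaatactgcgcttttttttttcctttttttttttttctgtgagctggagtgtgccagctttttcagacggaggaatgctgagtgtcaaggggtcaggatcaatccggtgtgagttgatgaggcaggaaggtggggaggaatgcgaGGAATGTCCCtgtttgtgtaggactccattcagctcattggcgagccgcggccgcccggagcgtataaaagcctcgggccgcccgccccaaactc
The match starts 97 bases before the start site in CFLAR and SDC4 and 95 bases before it in CCN2. In windows from 250 bases before to 50 after the start, searched on both strands, a kappaB match was found in 21 of 97 genes higher with p65 that had an entry (21.6%), in 2 of 20 lower genes (10%) and in 1416 of 11046 genes tested (12.8%). A match was held by 11.3% of all 34943 RefSeq promoters. The AP-1 motif TGANTCA was found in 5.15% of the 97, 5% of the 20 and 4.69% of the genes tested. The TEAD motif GGAATG was found in 10.3%, 20% and 11.0%. The kappaB match in CCN2 overlaps the letters of the TEAD motif. A match is a description of the letters and not a binding site, and no test was made of these shares.

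**Figure D4:**
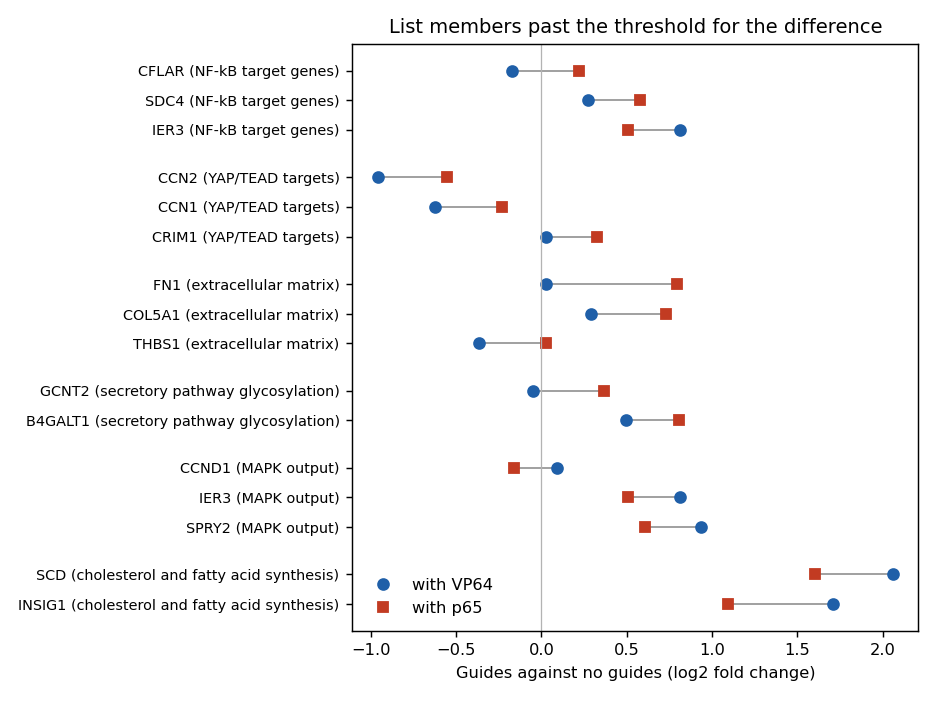
For members of 6 lists that passed the threshold for the difference, the log2 fold change of guides against no guides is shown with VP64 (blue circles) and with p65 (red squares). CCN2 moves from -0.96 to -0.55 and FN1 from 0.03 to 0.80, while SCD and INSIG1 move the other way, to 1.60 and 1.09.

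Other lists held single genes with a higher effect with p65. In the secretory glycosylation list, B4GALT1, a galactosyltransferase of the Golgi (0.31, SE 0.053, adjusted p = 0.00329), and GCNT2 (0.42, SE 0.082, adjusted p = 0.0107) were 2 of 19 members, with a median of 0.01. HK2, the glycolytic enzyme hexokinase 2, was 1 of 21 members of the hypoxia and glycolysis list (0.45, SE 0.075, adjusted p = 0.00268). Without guides HK2 was lower in the p65 line (-0.29, adjusted p = 0.00268). IFI44 was 1 of 32 interferon response genes (0.63, SE 0.134, adjusted p = 0.0196), of which 21 had differences below 0, with a median of -0.09. TNFRSF10B, a death receptor for TRAIL, was 1 of 22 p53 targets (0.25, SE 0.052, adjusted p = 0.0185), with a median of -0.04. The call of IFI44 was lost without VP64 without guides B or C or p65 without guides A or B (differences 0.55 to 0.70), and that of TNFRSF10B without VP64 without guides B or p65 without guides A (0.22 to 0.26).

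Among genes with a lower effect with p65, the smallest p belonged to PTMS, which encodes parathymosin, a chromatin-associated acidic protein (ENSG00000159335.15, chromosome 12, 6765516 to 6770952). PTMS lies upstream of CD4 on the same chromosome. Its level was 256, 239 and 242 CPM without guides and 1076, 1067 and 1025 CPM with guides in the VP64 pair. The p65 pair had 207, 234 and 242 CPM without guides and 540, 511 and 483 CPM with guides. The VP64 libraries with guides lay above the p65 libraries with guides, and both lay above all libraries without guides. The guide effect was 2.10 (SE 0.055) with VP64 and 1.17 (SE 0.054) with p65, a difference of -0.94 (SE 0.075, adjusted p = 3.94e-07). PTMS was the 1 gene of 18 tested CD4 neighbours that passed, and 12 of the 18 had differences below 0, with a median of -0.07. LAG3, an immune checkpoint receptor gene beside CD4, had a difference of -0.59 with an SE of 0.737 and did not pass (adjusted p = 0.850).

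DCT, dopachrome tautomerase of the melanin pathway, was the 1 gene at least 2-fold lower. It had 3.79, 3.33 and 2.95 CPM without guides and 4.45, 5.01 and 3.85 CPM with guides in the VP64 pair. In the p65 pair it had 5.14, 6.14 and 5.90 CPM without guides and 3.30, 3.79 and 3.65 CPM with guides. The p65 line without guides stood above the other 3 lines, so the difference of -1.08 (SE 0.230, adjusted p = 0.0192) came with an unequal start of 0.77 on the log2 scale (adjusted p = 0.00908). Of 17 melanocyte lineage genes, 1 passed and 14 had differences below 0, with a median of -0.14. Summed TPM of the lineage list was 326 to 351 and 296 to 311 without guides (VP64 and p65), 551 to 645 with VP64 guides and 408 to 519 with p65 guides. Their part in the differences was not tested. The call of DCT was lost without VP64 with guides B, VP64 without guides C or p65 without guides B (differences -1.18 to -0.98).

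TOX2, a transcription factor of the HMG-box family, and MT1X, a metallothionein, rose with VP64 and did not pass with p65. TOX2 had 10.3, 8.39 and 9.01 CPM and then 17.7, 16.1 and 13.8 CPM in the VP64 pair, and 10.6, 10.2 and 11.4 CPM and then 10.1, 11.8 and 10.1 CPM in the p65 pair. The VP64 libraries with guides stood above the other 9 libraries. Its difference was -0.79 (SE 0.153, adjusted p = 0.0089), and that of MT1X was -0.64 (SE 0.117, adjusted p = 0.00599). MT1X is uncertain, since metallothionein genes are near-identical. SERPINE2, the protease inhibitor nexin-1, rose by 1.04 with VP64 and by 0.61 with p65, a difference of -0.43 (SE 0.063, adjusted p = 0.000632). Without guides SERPINE2 was already lower in the p65 line (-0.17, edgeR adjusted p = 0.0451). MARCKSL1, an actin-regulating membrane protein, had a difference of -0.47 (SE 0.088, adjusted p = 0.00705) and CTDSPL, a small phosphatase, one of -0.45 (SE 0.091, adjusted p = 0.0116).

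In cholesterol and fatty acid synthesis, 2 of 29 members were lower with p65, 20 differences lay below 0 and the median was -0.08. INSIG1, the sterol-regulated protein that retains SREBP in the endoplasmic reticulum, had 20.3, 20.5 and 22.03 CPM without guides and 66.6, 74.9 and 63.2 CPM with guides in the VP64 pair. With p65, INSIG1 had 17.5, 17.4 and 19.2 CPM without guides and 43.7, 39.4 and 32.7 CPM with guides. All libraries with guides lay above those without, and the VP64 libraries with guides lay highest. The difference was -0.61 (SE 0.125, adjusted p = 0.0135). SCD, the desaturase that makes monounsaturated fatty acids, rose by 2.06 with VP64 and by 1.60 with p65 (difference -0.46, SE 0.104, adjusted p = 0.032). The call of INSIG1 was lost without p65 without guides C (differences -0.72 to -0.51 when 1 library was left out). That of SCD was lost with only the 12 libraries compared and without VP64 with guides B, any VP64 library without guides, or p65 without guides B or C (differences -0.52 to -0.34).

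Output genes of the MAPK pathway had 3 of 18 members lower with p65 and 0 higher, with 11 differences below 0 and a median of -0.05. They were IER3, SPRY2, a feedback inhibitor of receptor tyrosine kinase signalling (-0.33, SE 0.079, adjusted p = 0.0456), and CCND1, which encodes cyclin D1 (-0.26, SE 0.053, adjusted p = 0.0158). CCND1 was at 0.09 with VP64 and fell by 0.16 with p65, and SPRY2 rose by 0.93 and 0.61. HSPA5, the chaperone BiP, was 1 of 20 genes of the unfolded protein response (-0.24, SE 0.054, adjusted p = 0.0354), of which 15 had differences below 0. The calls of SPRY2 and HSPA5 were lost in 9 and 8 of the 12 refits that left out 1 library. SPRY2 kept its call only without VP64 with guides C or p65 with guides A or B, and HSPA5 only without those or VP64 with guides A. Their differences ran from -0.38 to -0.25 and from -0.27 to -0.20, and that of CCND1, lost without VP64 with guides B, VP64 without guides B or C or p65 without guides B, from -0.29 to -0.21.

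Further lower genes with large differences were HDAC5, a class IIa histone deacetylase (-0.55, SE 0.122), the sulfate transporter SLC26A2 (-0.55, SE 0.113) and TMEM59L (-0.61, SE 0.147, adjusted p = 0.0497). HDAC5 and SLC26A2 rose with both nanobodies and rose less with p65, and TMEM59L rose with VP64 alone. All 3 lost the call in refits that left out 1 library. HDAC5 lost it without VP64 with guides B, p65 with guides C, VP64 without guides B or C, or p65 without guides C, and SLC26A2 without VP64 with guides B or p65 without guides B. TMEM59L lost it in 9 of 12 (all but VP64 with guides C, p65 with guides A and VP64 without guides A). Their differences ran from -0.65 to -0.47, from -0.66 to -0.46 and from -0.70 to -0.53.

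The remaining genes named for a large higher effect with p65 were ALPK2, an alpha-kinase gene (1.08, SE 0.165, adjusted p = 0.000974), KIRREL3, a cell adhesion gene (0.85, SE 0.191, adjusted p = 0.0296), and RMRP, the RNA of the RNase MRP complex (6.13, SE 1.467, adjusted p = 0.0442). ALPK2 did not pass with VP64 (0.14) and rose with p65 (1.22), to 34.9, 40.4 and 49.0 CPM. RMRP ran from 1.43 to 33.5 CPM within the VP64 line without guides, from 1.10 to 5.29 and from 1.18 to 16.2 CPM within the p65 lines without and with guides, and from 0 to 0.671 CPM in the VP64 line with guides. The last lay below the other 3 lines, whose libraries overlapped. RMRP is also uncertain because 2 overlapping annotated genes carry the symbol. RMRP and KIRREL3 each lost the call in 8 refits that left out 1 library (both without VP64 with guides B or C, p65 with guides C, VP64 without guides B or p65 without guides B or C, RMRP also without VP64 with guides A or p65 without guides A, and KIRREL3 without p65 with guides A or VP64 without guides C). Their differences ran from 4.05 to 6.81 and from 0.76 to 1.02.

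No member passed in the lists of class I antigen presentation (0 of 18), heat shock (0 of 14), DNA replication (0 of 26), G2/M (0 of 21), LXR and PPAR lipid handling (0 of 19), coactivators of VP64 and p65 (0 of 37), ribosomal proteins (0 of 32) and mitochondrially encoded genes (0 of 13) by edgeR. At an unadjusted p under 0.05, 1684 of all genes tested passed. The medians of these lists lay between -0.07 and 0.05. In DNA replication 21 of 26 differences and in G2/M 17 of 21 lay below 0, with medians of -0.07 and -0.05. The 9 tested genes of axonemal dynein and cilia held 0 calls at a median of 0.32. Markers of myeloid (0 of 12), epithelial (0 of 7), fibroblast and endothelial cells (0 of 6) and T cells (0 of 2) also held no gene past the threshold.

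A group of rare genes could not be placed by the difference. By a rule chosen after the values were seen, 33 genes rose at least 2-fold with p65 and were at least 2-fold higher in the p65 line than in the VP64 line with guides, both past the threshold. The difference passed for 5 of them, among them TFCP2L1, SSUH2, TFEC and SLC15A2, and did not pass for 28. Of those 28, 15 had fewer than 10 counts summed over 3 libraries in a line without guides. MGAT4C, a glycosyltransferase gene (chromosome 12, 85955666 to 86838904), had 4 counts without guides and 44 with guides in the VP64 pair and 9 and 1241 in the p65 pair. With guides the scaled ratio of p65 to VP64 was 25.9 (95% interval 19.2 to 35.8, counting error only), and the difference was 3.68 (SE 0.918, adjusted p = 0.0671). PIGR, the receptor that carries polymeric immunoglobulin across epithelia, had 4, 30, 4 and 481 counts in the same order, a ratio of 14.7 (10.2 to 22.04) and a difference of 3.95 (SE 0.965, adjusted p = 0.0614). The rule chose genes by this same ratio, so the ratios and their intervals are descriptions. Only the p65 libraries with guides carried PIGR past the low-count filter, so its adjusted p is also a description.

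ESYT3 had 0 counts in both lines without guides, 15 with VP64 guides and 167 with p65 guides, and THEG had 1, 16, 0 and 135. ECRG4 had 0, 4, 4 and 120 counts and FREM1 had 0, 1, 1 and 69. The rule itself required a higher level with p65 guides, so that level is a description. These genes, too, passed the low-count filter only through the p65 libraries with guides. The fold over the line without guides was set by a few counts, and the difference on the log2 scale was not detectable at this depth. KLRC2, with 1, 13, 0 and 71 counts, is uncertain because of near-identical family members.

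**Figure D5:**
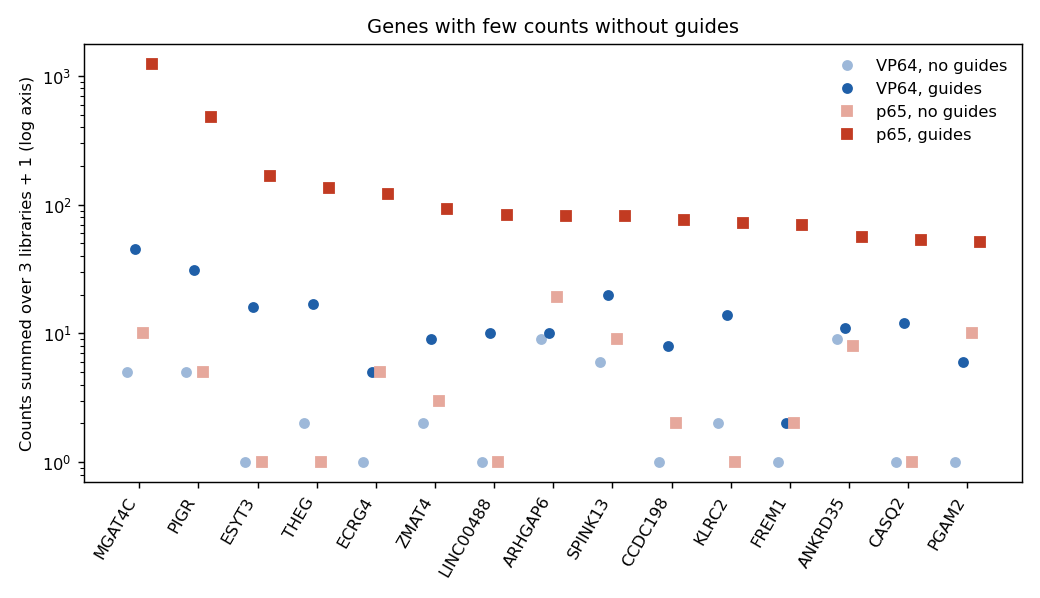
For 15 genes with fewer than 10 counts in a line without guides, the vertical axis gives the counts summed over 3 libraries plus 1 on a log axis, by line. The p65 line with guides (red squares) lies highest for each gene, at 1241 counts for MGAT4C, and the lines without guides lie near the bottom.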

How the data were processed

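Total RNA of the lines was sequenced. The authors aligned reads with STAR to hg38 and estimated each gene's expected count with RSEM, per the submitters' processing notes. The sources used here give neither strandedness nor tool versions. The deposited TPM values, which are length-scaled per the file headers, served only for marker levels. Of 58813 entries per table, 92 spike-ins were left out, and the 58721 genes matched GENCODE release 29.

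Expected counts were rounded and fitted in edgeR 4.0.16 (R 4.3.3) by quasi-likelihood over all 15 libraries, 1 coefficient per line, with TMM factors of 0.983 to 1.014 and filterByExpr (minimum count 10). Benjamini-Hochberg adjustment ran over 14961 genes, with a threshold of 0.05. The fit was tested on simulated data. CPM used TMM library sizes. Ratios of summed counts have exact intervals for counting error. Alternatives were size factors and the Wald test of DESeq2 1.42.0, other filters, 12 libraries, a replicate block, unrounded counts and leaving out each library.

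Named genes were CD4 and RELA, up to 12 per direction with the largest difference (mean of at least 1 CPM, at least 10 counts per line), up to 6 with the smallest p (at least 10 CPM), up to 6 with fewer than 10 counts in a line, up to 5 passing in opposite directions and up to 3 per list. Some genes named by this rule are not reported here. The members and lists were chosen with earlier results of these data known. Promoters came from RefSeq GRCh38.p14.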

Additional observations from a re-analysis of the deposited data

Results flagged for a closer look

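The response to the guides differed between the nanobodies by the test of the difference itself in 115 genes with a higher effect with p65 and 28 with a lower one. In 11 of these genes the guide effects with VP64 and p65 each passed, in opposite directions. Among them, NFASC (log2 difference 0.51), HBEGF (0.36), GABRA6 (1.50), EPB41L3 (0.43), ANXA2 (0.21), NAT9 (0.34), SFT2D2 (0.48) and CFLAR (0.39) fell with VP64 and rose with p65. ZMYM3 (-0.32) and STK24 (-0.23) rose with VP64 and fell with p65. With VP64 and p65 in that order, GABRA6 stood at -0.76 and 0.74, ANXA2 at -0.11 and 0.11, NAT9 at -0.19 and 0.15, SFT2D2 at -0.24 and 0.24, ZMYM3 at 0.18 and -0.14 and STK24 at 0.13 and -0.10.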

How the results depend on the processing

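All 143 genes kept the direction of their difference in every alternative run. Without a low-count filter 27933 genes were tested, and 238 were higher and 122 lower with p65, 52 and 22 of them at least 2-fold. The Wald test of DESeq2 called 197 higher and 45 lower genes, and the 12 libraries alone gave 17 lower genes. Leaving out 1 library gave 80 to 133 higher and 9 to 54 lower genes, and 8 to 15 and 0 to 3 at least 2-fold; the cause was not tested. The difference of CD4 ranged from -0.20 to -0.10 when 1 library was left out and stayed short of the threshold. With the replicate letter as a replicate block there were 102 higher and 26 lower genes, and 120 of the 143 kept the call. Of the 143, 110 kept it with only the 12 libraries compared, and 87 to 125 kept it when 1 library was left out. Correlations between deviations of same-letter libraries ran from -0.11 to 0.13, and those of different-letter libraries from -0.11 to 0.14. Between the VP64 and p65 lines with guides, the same-letter values were 0.085, 0.131 and 0.019. The different-letter values there ran from -0.103 to 0.016. Whether the letters pair the libraries was not tested. Of 52 named genes past the threshold, 32 kept the call in every setting that gave an adjusted p (DESeq2 gave none for SLC15A2), 20 lost it when at least 1 library was left out and 9 in another setting (CCN2, CFLAR, HSPA5, IER3, KIRREL3, RMRP, SCD, SPRY2 and TMEM59L). Few counts limit the difference in genes below 1 CPM.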

Other observations

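Some genes past the threshold belong to none of the lists and were picked after their values were seen. ANXA2, which encodes annexin A2 (0.21), and S100A10, which encodes its binding partner (0.51, guide effects 0.42 with VP64 and 0.93 with p65), both had higher effects with p65, as did ANXA1. MAP3K14, which encodes the kinase NIK of the noncanonical NF-kB pathway, rose by 0.54 with VP64 and by 1.05 with p65, a difference of 0.51. IL11, a cytokine of the IL-6 family, fell with VP64 (-0.62) and did not pass with p65 (-0.07). SDC1, which encodes syndecan-1, fell by 0.76 and 0.46, whereas SDC4 rose with both. NPC1, the lysosomal cholesterol exporter, rose more with p65 (0.71 and 1.12), while INSIG1 and SCD rose less. TFRC, which encodes the transferrin receptor, fell by 0.57 with VP64 and by 0.30 with p65.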
